A study of Caenorhabditis elegans with 6 samples.

Results

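The fatty acid activation and beta-oxidation genes of *C. elegans* were compared between N2, the wild-type, and *folr-1(syb4116)*, a loss-of-function mutant of FOLR-1, the worm's one ortholog of the folate receptors. They were chosen by name, as the genes of the count table whose WBcel235 symbol starts with *acs-*, *acdh-*, *acox-*, *ech-*, *cpt-*, *hacd-* or *maoc-* and a number, together with *daf-22* and *dhs-28*. The symbols *acdh-1* and *ech-6* were left out. This gave 60 of the 46661 genes, and all 60 passed the filter on low counts. Both strains were synchronized by bleaching, raised at 20 °C on *E. coli* HT115 carrying the empty RNAi vector and collected as whole L4 larvae, with 3 biological replicates of each strain. The *syb4116* allele was made by CRISPR/Cas9 and has a premature stop codon near the start of *folr-1*, and a single mutant strain was sequenced.

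To be burned, a fatty acid is first joined to coenzyme A by an acyl-CoA synthetase. Long chains then enter the mitochondrion as carnitine esters made by carnitine palmitoyl transferases. There each round of beta-oxidation removes a short acetyl unit in a series of steps that are carried out by an acyl-CoA dehydrogenase, an enoyl-CoA hydratase, a hydroxyacyl-CoA dehydrogenase and a thiolase. Peroxisomes run a parallel pathway in which an acyl-CoA oxidase makes the first step. In *C. elegans* the peroxisomal enzymes ACOX-1, MAOC-1, DHS-28 and DAF-22 are known for shortening the side chains of ascarosides, the pheromones of the worm. The nuclear hormone receptor NHR-49 is known to raise several mitochondrial genes of the pathway when worms are starved.

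The libraries held between 21646678 and 25946226 counts, and the mutated gene itself was lower in every mutant library than in every N2 library. The read counts of *folr-1* were 32, 37 and 59 in N2 and 14, 11 and 7 in the mutant. The log2 fold change (mutant over N2) was -2.02, with a standard error (SE) of 0.31 and an adjusted p of 4.99e-04. Levels are given as CPM, counts per 1e6 of a library size scaled by edgeR's TMM method, and compared within a gene. Adjusted p-values are those of edgeR's quasi-likelihood test after the Benjamini-Hochberg correction over all 15432 tested genes. A gene with an adjusted p under 0.05 is called higher or lower in the mutant.

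Of the 60 genes, 9 were called higher and 1 was called lower in the mutant. The same calls were made for 3.64% (higher) and 3.32% (lower) of all tested genes. At an unadjusted p under 0.05, 21 of the 60 were higher and 5 lower, where the shares over all tested genes were 10.3% and 9.91%. The higher genes were the acyl-CoA synthetases *acs-1*, *acs-5* and *acs-7*, the carnitine transferase gene *cpt-5*, the dehydrogenases *acdh-10* and *hacd-1*, the hydratase gene *ech-7*, and the peroxisomal genes *acox-1.2* and *dhs-28*. The lower gene was *cpt-3*. All of these changes were modest except that of *cpt-3*, a gene with few reads. The log2 fold changes of the 9 higher genes lay between 0.14 (*dhs-28*) and 0.62 (*acox-1.2*).

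Over the 60 genes the median log2 fold change was 0.05, beside 0.003 over all tested genes. Values above 0 were found for 36 genes (50.7% of all tested genes had such a value) and values below 0 for 24, and 33 genes differed by less than 10% in their fitted level. The libraries of the mutant lay above all N2 libraries for 18 genes (the share over all tested genes was 12.3%) and below them for 7 genes (11.7%, with 12.9% over all tested genes). Summed over the 60 genes, the level was 4357, 4399 and 4406 CPM in the N2 libraries and 4551, 4720 and 4580 CPM in the mutant libraries. Every mutant library was thus above every N2 library, by 5.24% in the mean. The depth was high for most of the genes, and 55 of the 60 had at least 100 counts in every library.

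**Figure D1:**
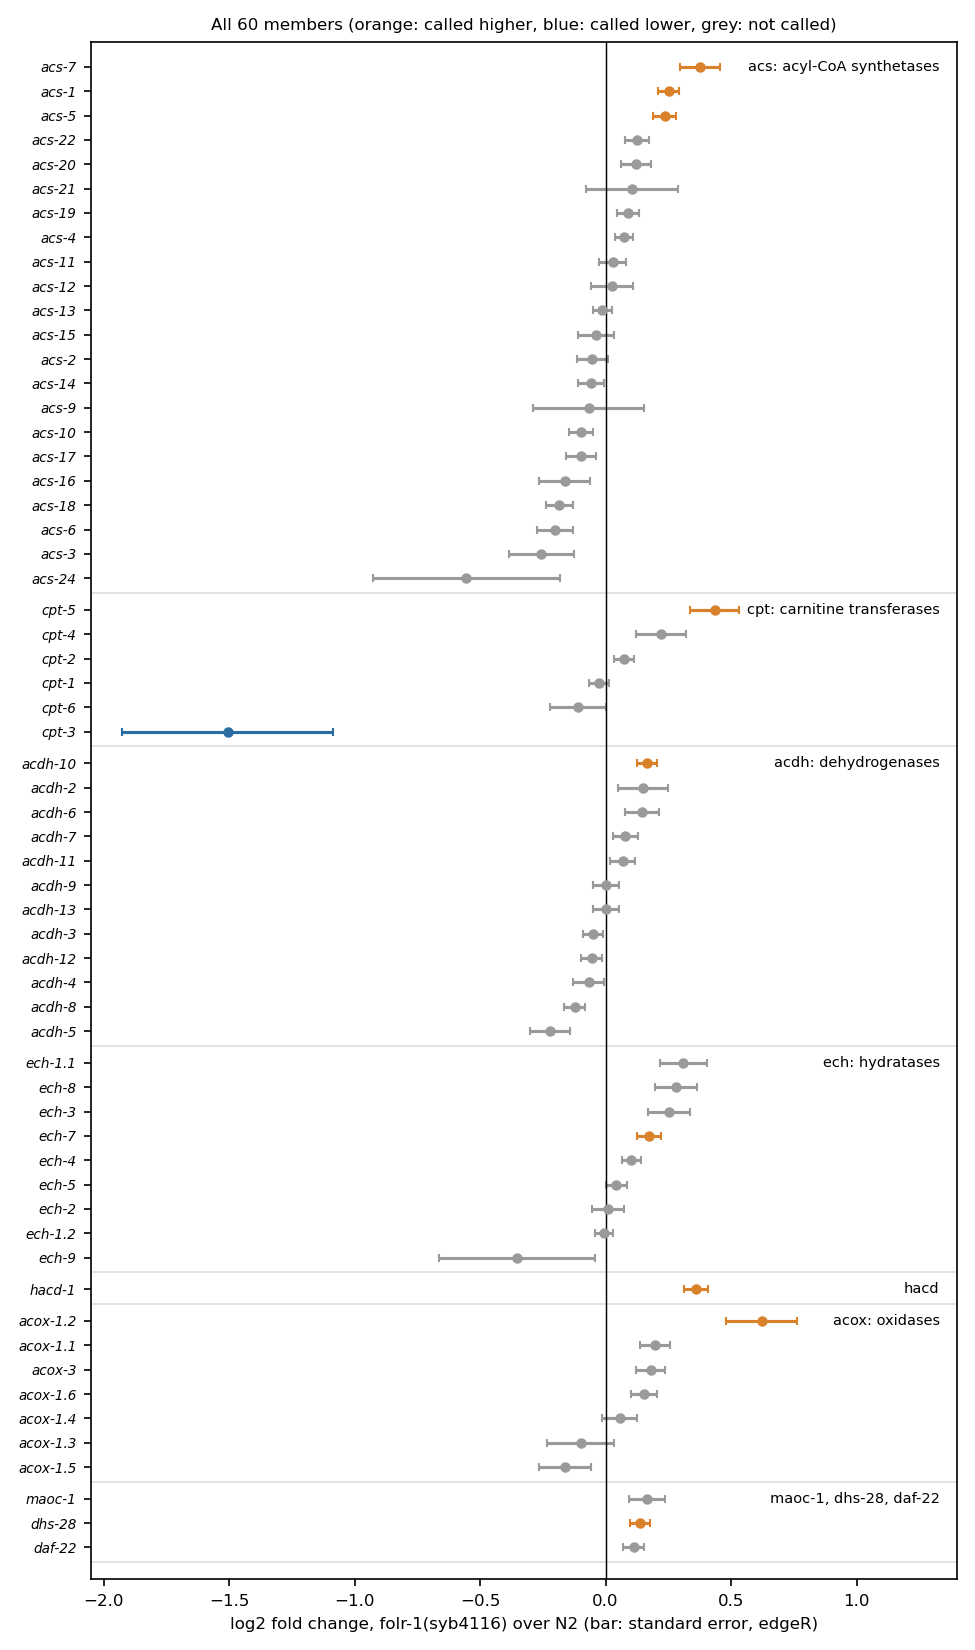
Log2 fold change of each of the 60 genes, *folr-1(syb4116)* over N2 (horizontal axis), with the standard error from edgeR as bars, ordered by enzyme class from top to bottom. The 9 genes called higher are orange, *cpt-3* is the single blue point far to the left at -1.51, and the grey points lie on both sides of 0.

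Of the called genes, 4 kept their call in every fit at this threshold. *acs-1*, *acs-5*, *acs-7* and *hacd-1* were called higher in all 17 alternative fits that kept the threshold, including each of the 6 that left out one library. *cpt-5* was called in 14 of the 17, *acox-1.2* in 11, *acdh-10* in 10, *dhs-28* in 6, *ech-7* in 5 and *cpt-3* in 4. Without *folr-1(syb4116)* replicate 2, only *acs-1*, *acs-5*, *acs-7* and *hacd-1* of the 60 genes were called higher. Calls over all genes fell as well, to 363 higher genes without that library from 561 with it. *folr-1(syb4116)* replicate 2 had the highest level of its strain for 34 of the 60 genes, where replicates 1 and 3 had it for 12 and 14. The same count was not made over all tested genes.

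**Figure D2:**
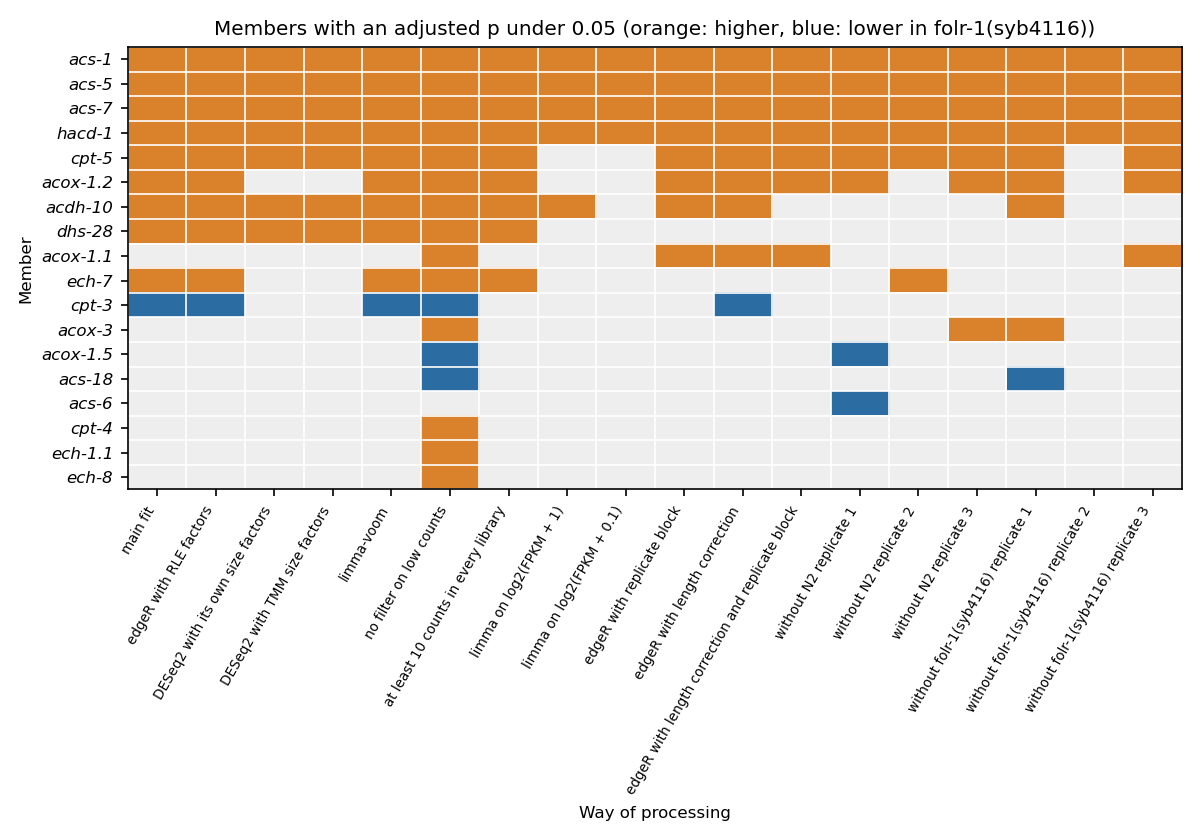
Genes with an adjusted p under 0.05 (rows) in the edgeR fit used here, marked main fit, and in 17 alternative fits (columns), orange where higher and blue where lower in *folr-1(syb4116)*. The rows of *acs-1*, *acs-5*, *acs-7* and *hacd-1* are orange throughout, and the column without *folr-1(syb4116)* replicate 2 holds these 4 genes alone.

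Among the 22 acyl-CoA synthetase genes, which carry out activation, 3 were called higher, where 3.64% of all tested genes were. Of the other 19, *acs-22* was higher and *acs-6* and *acs-18* were lower at an unadjusted p under 0.05, and none of these was called. The class as a whole was divided, with 10 log2 fold changes above 0, 12 below 0 and a median of -0.03. Its mean levels in N2 ran from 0.533 FPKM (*acs-24*) to 136 FPKM (*acs-4*), where FPKM is the authors' count scaled to gene length and library size.

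*acs-1* (F46E10.1, WBGene00018488, chromosome V, 6524989 to 6532089 on the forward strand) encodes the synthetase known for activating monomethyl branched-chain fatty acids, which the worm needs for growth. Its level was 181, 177 and 190 CPM in N2 replicates 1 to 3 and 213, 226 and 213 CPM in the mutant replicates. All 3 mutant libraries lay above the highest N2 library, and the strains did not overlap. The mean rose from 183 ± 6.87 (SD, n = 3) to 218 ± 7.51 CPM (SD, n = 3), which is 0.25 on the log2 scale (SE 0.04, adjusted p = 9.32e-04). The 6 fits that omitted one library gave 0.22 to 0.28. At its 3' end *acs-1* shares 19 bp of exon with *hpo-26* on the opposite strand, which was not called (log2 fold change -0.63, adjusted p = 0.124).

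*acs-5* (Y76A2B.3, WBGene00013575, chromosome III, 13540139 to 13543534, reverse strand) is a further acyl-CoA synthetase gene. It was at 135, 135 and 122 CPM in N2 and at 151, 157 and 153 CPM in the mutant. The lowest mutant library was again above the highest N2 library, and the mutant libraries were closer to each other than those of N2. The log2 fold change was 0.23 (SE 0.04, adjusted p = 0.00319).

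*acs-7* (C01G6.7, WBGene00007228, chromosome II, 9292017 to 9294033, forward strand) is known for the attachment of side groups to ascarosides. It had the largest rise of the class, from 16.8, 16.4 and 14.4 CPM in N2 to 19.5, 21.7 and 20.5 CPM in the mutant. The strains did not overlap, and the log2 fold change was 0.38 (SE 0.08, adjusted p = 0.00795). The 3' end of *acs-7* shares 9 bp of exon with C01G6.9 on the opposite strand, which was not called (log2 fold change -0.55, adjusted p = 0.0853).

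Other synthetases with known roles did not pass the test. *acs-2*, a mitochondrial synthetase that NHR-49 switches on in fasting, was at 35.9, 35.1 and 34.0 CPM in N2 and at 34.2, 31.0 and 35.9 CPM in the mutant. The strains overlapped, and the log2 fold change was -0.05 (SE 0.06, adjusted p = 0.695). *acs-20* and *acs-22*, which are related to the mammalian fatty acid transporter FATP4 and act in the surface barrier of the worm, both had a log2 fold change of 0.12 (adjusted p = 0.260 and 0.147). *acs-3*, known from the seam cells of the epidermis for limiting fat uptake, had a log2 fold change of -0.26 (SE 0.13, adjusted p = 0.283), with all 3 mutant libraries below those of N2. Without *folr-1(syb4116)* replicate 3 the value of *acs-3* was -0.12, and without replicate 2 of that strain the value of *acs-20* was 0.04. *acs-22* shares 44 bp of exon with *dylt-2* on the opposite strand, which had at most 3 counts in a library. *acs-4*, with the most reads of the class, had a mean of 388 ± 10.9 CPM in N2 and of 407 ± 3.24 CPM in the mutant (SD, n = 3 each), and was not called (log2 fold change 0.07, adjusted p = 0.278).

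**Figure D3:**
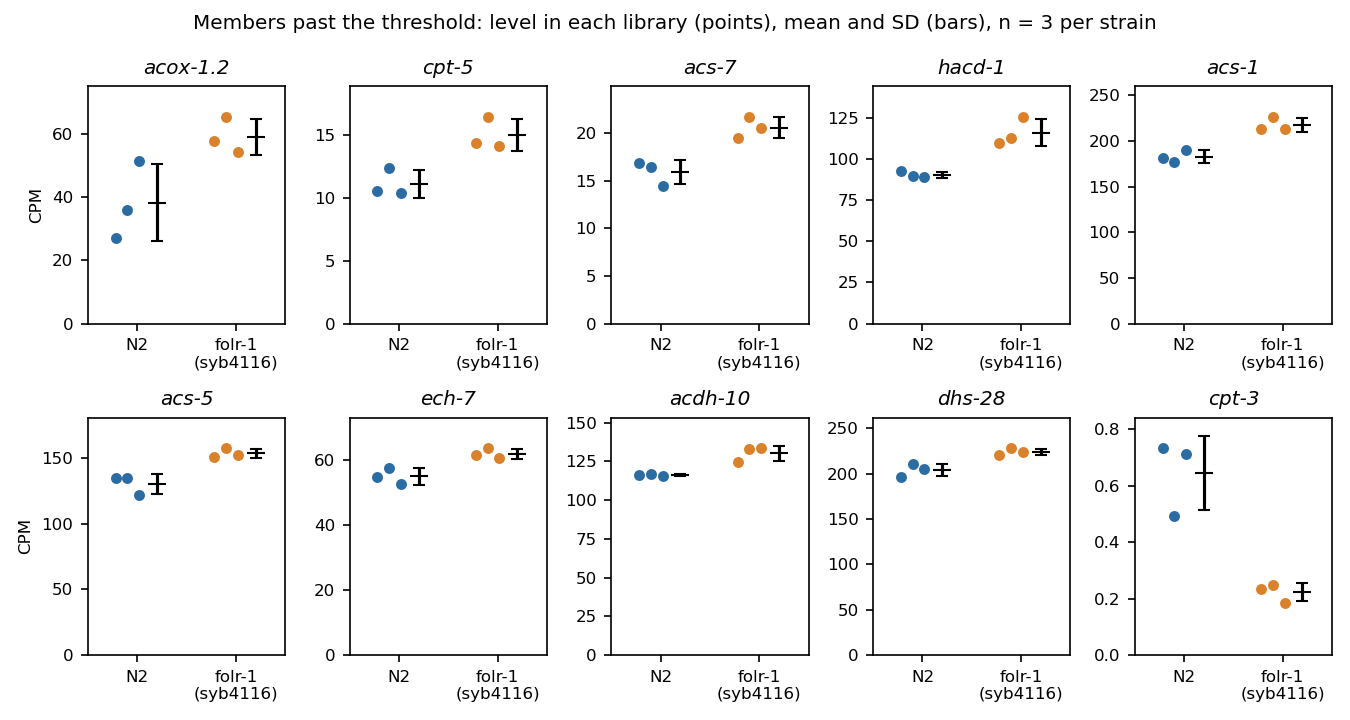
Level in CPM (vertical axes, starting at 0) of the 10 called genes in each library of N2 (blue) and *folr-1(syb4116)* (orange), with the mean and SD of the 3 libraries as a black bar beside the points. In every panel the points of the strains are separated, by the widest gap for *cpt-3* and by small ones for *acox-1.2*, *dhs-28* and *ech-7*. The N2 points of *acox-1.2* spread from 27.2 to 51.4 CPM.

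Of the 6 carnitine palmitoyl transferase genes, *cpt-5* was called higher and *cpt-3* lower (3.64% and 3.32% of all tested genes were). *cpt-5* (F09F3.9, WBGene00008629, chromosome V, 13873195 to 13875888, forward strand) is a member of the family known to respond to fasting. Its level was 10.5, 12.3 and 10.4 CPM in N2 and 14.3, 16.4 and 14.1 CPM in the mutant. The libraries did not overlap, and the log2 fold change was 0.43 (SE 0.10, adjusted p = 0.0105). The call was lost without *folr-1(syb4116)* replicate 2, the highest of the 6 libraries, with an adjusted p of 0.0595.

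*cpt-3* (Y48G9A.10, WBGene00021703, chromosome III, 2082819 to 2088314, forward strand) was hardly expressed. It had 16, 11 and 18 counts in the N2 libraries and 6, 6 and 4 counts in the mutant libraries. Each mutant library had fewer counts than any N2 library, and the log2 fold change was -1.51 (SE 0.42, adjusted p = 0.0391). This call did not hold in any of the 6 fits that left out one library, in which the adjusted p lay between 0.0573 and 0.137, nor with DESeq2.

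Neither of the transferases with the most reads was called. *cpt-1*, for the outer step, had a mean of 148 ± 4.56 CPM in N2 and of 146 ± 4.12 CPM in the mutant (SD, n = 3 each), with no call (log2 fold change -0.03, SE 0.04, adjusted p = 0.782). *cpt-2*, for the inner step, was at 160 ± 2.93 and 168 ± 6.13 CPM (SD, n = 3 each), with a log2 fold change of 0.07 (SE 0.04, adjusted p = 0.317).

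Of the 12 acyl-CoA dehydrogenase genes, which make the first mitochondrial step, *acdh-10* alone was called higher (3.64% of all tested genes were) and none lower. Their median log2 fold change was 0.001, with 7 above 0 and 5 below, and 8 of the 12 differed by less than 10%. *acdh-10* (T08G2.3, WBGene00020366, chromosome X, 17213144 to 17214903, reverse strand) is related to the human medium-chain acyl-CoA dehydrogenase. It was at 116, 117 and 115 CPM in N2 and at 125, 133 and 133 CPM in the mutant. The N2 libraries had a coefficient of variation of 0.649%, and every mutant library was above them. The log2 fold change was 0.17 (SE 0.04, adjusted p = 0.0181), and the call was lost in 5 of the 6 fits that left out one library.

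*acdh-7* lies 115 bp away on the same strand of chromosome X and was not called (log2 fold change 0.08, adjusted p = 0.429). *acdh-11*, known for binding medium-length fatty acids and for adaptation to heat, had a log2 fold change of 0.07 (SE 0.05, adjusted p = 0.487). *acdh-12*, the dehydrogenase gene with the most reads, had one of -0.06 (SE 0.04, adjusted p = 0.499) and shares 80 bp of exon with E04F6.4 on the opposite strand (-0.23, adjusted p = 0.260). The mutant libraries lay below those of N2 for *acdh-4*, *acdh-5* and *acdh-8*, as for 12.9% of all tested genes. These 3 are named here after their values were seen, with log2 fold changes of -0.07, -0.22 and -0.12 and no adjusted p under 0.09.

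*hacd-1* (R09B5.6, WBGene00019978, chromosome V, 1460369 to 1461613, forward strand) encodes a hydroxyacyl-CoA dehydrogenase. Its level was 92.4, 89.5 and 88.8 CPM in N2 and 110, 113 and 125 CPM in the mutant. The N2 libraries were tightly grouped, and the lowest mutant library was well above them. The N2 mean of 90.2 ± 1.89 CPM stood against 116 ± 8.34 CPM in the mutant (SD, n = 3 each), 28.4% higher in the fit. The log2 fold change was 0.36 (SE 0.05), and the adjusted p of 1.55e-04 was the smallest of the 60 genes. Without one library at a time it lay between 0.30 and 0.40.

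Of the 9 enoyl-CoA hydratase genes, *ech-7* was called higher, where 3.64% of all tested genes were. The class had 7 log2 fold changes above 0 and 2 below, with a median of 0.10, and its summed level was 675 ± 6.23 CPM in N2 and 698 ± 6.18 CPM in the mutant (SD, n = 3 each). Among those not called, *ech-3* and *ech-8*, named after their values were seen, had log2 fold changes of 0.25 and 0.28 (adjusted p = 0.0899 and 0.0594). *ech-7* (Y105E8A.4, WBGene00001156, chromosome I, 14367616 to 14369773, reverse strand) was at 54.9, 57.5 and 52.4 CPM in N2 and at 61.3, 63.5 and 60.6 CPM in the mutant. The strains did not overlap, and the log2 fold change was 0.17 (SE 0.05, adjusted p = 0.0402). The call was lost in 5 of the 6 fits that left out one library.

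*ech-1.1* and *ech-1.2* are related to the alpha subunit of the mitochondrial trifunctional protein and stood apart in level and in value. *ech-1.2*, the more abundant by far at 136.5 ± 0.600 FPKM (SD, n = 3) in N2, was at 364, 364 and 367 CPM in N2 and at 356, 371 and 364 CPM in the mutant. The strains overlapped, and the log2 fold change was -0.01 (SE 0.04, adjusted p = 0.938). *ech-1.1*, at 5.40 ± 0.542 FPKM (SD, n = 3) in N2, was at 11.3, 13.6 and 13.4 CPM in N2 and at 15.2, 17.2 and 15.2 CPM in the mutant. Its libraries did not overlap, and its log2 fold change of 0.31 (SE 0.09) narrowly missed the threshold, with an adjusted p of 0.0581. The difference between both genes was not tested.

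Of the 7 acyl-CoA oxidase genes, which make the first peroxisomal step, *acox-1.2* alone was called higher, where 3.64% of all tested genes were. The class had 5 log2 fold changes above 0 and 2 below, with a median of 0.15, and its summed level was 317 ± 28.2 CPM in N2 and 353.5 ± 16.1 CPM in the mutant (SD, n = 3 each), with overlapping libraries. *acox-1.1* to *acox-1.4* lie in a row on the forward strand of chromosome I, between 12938555 and 12954003, with gaps of 53, 344 and 35 bp. They are closely related copies, so reads could be shared or lost between them, and their values are uncertain to that extent. *acox-1.2* (F08A8.2, WBGene00008565) was at 27.2, 36.1 and 51.4 CPM in N2 and at 57.8, 65.4 and 54.2 CPM in the mutant. N2 replicate 3 came close to the lowest mutant library, and the N2 coefficient of variation of 32.0% was the highest of the 60 genes. The log2 fold change of 0.62 (SE 0.14, adjusted p = 0.0117) was the largest rise among them. It was 0.43 without N2 replicate 1 and 0.90 without N2 replicate 3, and the call was lost with DESeq2 (adjusted p = 0.209) and without N2 replicate 2 (adjusted p = 0.0504) or *folr-1(syb4116)* replicate 2 (adjusted p = 0.0548).

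None of the neighbours of *acox-1.2* in the row was called. *acox-1.1*, whose enzyme is known for shortening ascaroside side chains, was at 63.7, 72.5 and 71.2 CPM in N2 and at 77.4, 86.6 and 73.8 CPM in the mutant. Its libraries did not overlap, but it was not called, with a log2 fold change of 0.20 (SE 0.06, adjusted p = 0.0598). It was called in 5 of the 17 alternative fits, as often as *ech-7*, and omitting one library moved its log2 fold change to between 0.13 (*folr-1(syb4116)* replicate 2 omitted) and 0.24 (replicate 3 of that strain omitted). *acox-1.3* and *acox-1.4* had log2 fold changes of -0.10 (adjusted p = 0.744) and 0.06 (adjusted p = 0.716). Whether these differ from *acox-1.2* was not tested.

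The 3 genes of the later peroxisomal steps all had a log2 fold change above 0, and *dhs-28* was called higher, as were 3.64% of all tested genes. *dhs-28* (M03A8.1, WBGene00000991, chromosome X, 6818438 to 6820080, forward strand), for the dehydrogenase step, had the highest level per length of the 60 genes, at 145 ± 4.67 FPKM (SD, n = 3) in N2, followed by *ech-1.2* at 136.5 ± 0.600 and *acs-4* at 136 ± 3.81 FPKM (SD, n = 3 each). The levels of *ech-1.2* and *acs-4* did not differ beyond their spread. *dhs-28* was at 197, 210 and 205 CPM in N2 and at 221, 228 and 224 CPM in the mutant, without overlap. Its log2 fold change was 0.14 (SE 0.04, adjusted p = 0.0411), and the call was lost in each of the 6 fits that left out one library, with adjusted p-values from 0.0584 to 0.159. It shares 76 bp of exon with *gei-15* on the opposite strand, which was not called (log2 fold change 0.10, adjusted p = 0.308).

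*daf-22*, the thiolase of the last step, was at 124, 118 and 121 CPM in N2 and at 125, 133 and 133 CPM in the mutant. Its libraries were separated by a narrow gap, and the log2 fold change was 0.11 (SE 0.04, adjusted p = 0.126). *maoc-1*, for the hydratase step, had overlapping libraries and a log2 fold change of 0.17 (SE 0.07, adjusted p = 0.201), which dropped to 0.09 when *folr-1(syb4116)* replicate 2 was omitted and to 0.10 when N2 replicate 2 was. It shares 105 bp of exon with E04F6.6 on the opposite strand, which was not called (log2 fold change -0.22, adjusted p = 0.118). Summed over *maoc-1*, *dhs-28* and *daf-22*, the level was 354, 357 and 358 CPM in N2 and 380, 399 and 390 CPM in the mutant.

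**Figure D4:**
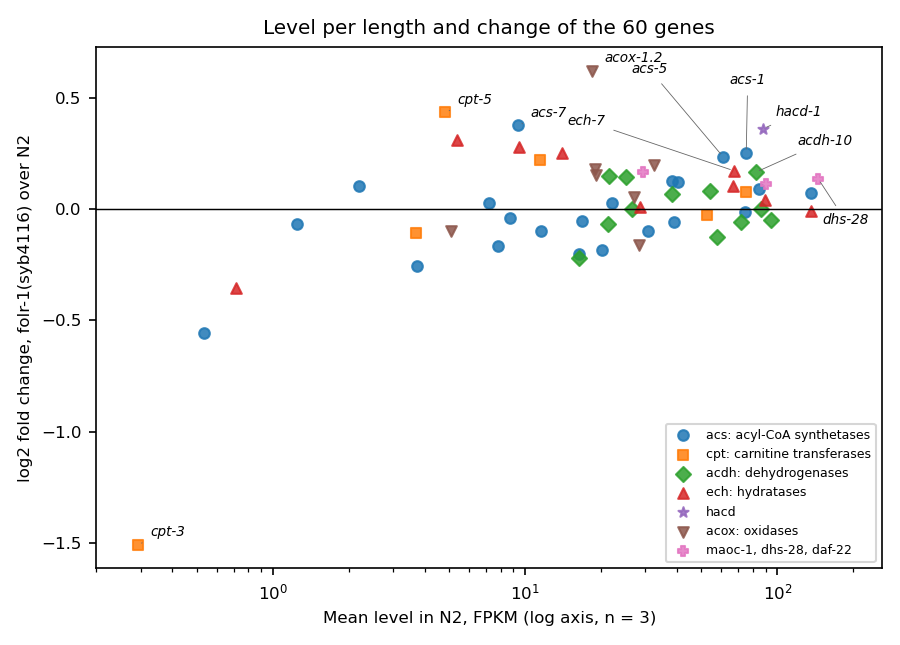
Mean level of each gene in N2 in FPKM (horizontal log axis, n = 3) against its log2 fold change in *folr-1(syb4116)* (vertical axis), with a marker for each enzyme class. The called genes are named: those called higher run from 4.83 FPKM (*cpt-5*) to 145 FPKM (*dhs-28*), and *cpt-3* lies alone at 0.291 FPKM.

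Genes that act beside these families were read from lists of their own. Of 22 further beta-oxidation and peroxisome genes (thiolases, peroxins, peroxisomal transporters and others), 1 was called higher, a share near the 3.64% of all tested genes. This was *ctl-2*, the peroxisomal catalase, with 61.6 CPM in N2, 68.7 CPM in the mutant and a log2 fold change of 0.16 (adjusted p = 0.0400). The median of that list was 0.09, with 19 values above 0 and 3 below. Of 10 tested lipases and lipase partners, including the triglyceride lipase *atgl-1* (log2 fold change -0.03, adjusted p = 0.815), 0 were called with edgeR, while 3 had an unadjusted p under 0.05 and were higher (10.3% of all tested genes were). Of 5 genes of fatty acid synthesis, the fatty acid synthase gene *fasn-1* (log2 fold change -0.20, adjusted p = 0.00351) and the ATP citrate lyase gene *acly-2* (-0.18, adjusted p = 0.0334) were called lower, as were 3.32% of all tested genes, and in both the mutant libraries lay below all N2 libraries.

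Of 8 genes linked to NHR-49, 7 were tested and 4 were called higher, where 3.64% of all tested genes were. The list was chosen with earlier results of these data known and holds genes already counted above, so its share is not a separate result. The genes called were *cpt-5* and *hacd-1* of the beta-oxidation genes and the desaturase genes *fat-5* and *fat-7*. The log2 fold changes of the last were 0.43 (adjusted p = 4.13e-04) and 0.66 (adjusted p = 2.68e-06). The other 3 tested genes were *acs-2*, *ech-1.1* and the glyoxylate cycle gene *icl-1* (adjusted p = 0.999). The tested genes of this list had values from -0.05 to 0.66, and *acs-2*, the one best known for its rise in fasting, had the lowest.

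Markers of several tissues also differed between the strains. Of 10 intestine markers, *opt-2* was not matched to a gene. Of the 9 tested, 3 (*ifb-2*, *act-5* and *asp-1*) were called higher, where 3.64% of all tested genes were. All 9 had a log2 fold change above 0 (50.7% of all tested genes had), and their median was 0.13. The summed level of the intestine list was between 6655 and 6769 CPM in N2 and between 7348 and 7709 CPM in the mutant. Its largest part came from *asp-1*, with 3419 CPM in N2 and 3964 CPM in the mutant, while *vha-6* hardly differed (log2 fold change 0.01, adjusted p = 0.908). Of 8 epidermis markers, 3 (*wrt-2*, *rol-6* and *sqt-3*) were called higher, beside the same 3.64% of all tested genes. Of these markers 5 had a log2 fold change above 0 and 3 below, with a median of 0.07. Those below 0 were the regulators *elt-3* (-0.10) and *elt-1* (-0.16) and *grd-10* (-0.16), and none of them was called. The epidermis sum was between 816 and 990.5 CPM in N2 and between 1015 and 1122 CPM in the mutant, and most of it came from *sqt-3*, with 653 CPM in N2. Of 5 body wall muscle markers, 2 (*unc-54* and *unc-22*) were called lower, where 3.32% of all tested genes were. In this list 1 had a log2 fold change above 0 and 4 below, with a median of -0.11. The muscle regulator *hlh-1* had the value above 0 (0.18, adjusted p = 0.609), and *myo-3* had overlapping libraries (-0.10, adjusted p = 0.334). The exons of *unc-22*, *unc-54*, *myo-3*, *unc-15* and *hlh-1* total 23368, 6204, 6104, 3424 and 1196 bp. The part of gene length in the values of these markers was not tested. The muscle sum was between 9019 and 9073 CPM in N2 and between 7122 and 8121 CPM in the mutant, and most of it came from *unc-54*, with 5607 CPM in N2. Of 6 germline markers 0 were called, with 2 log2 fold changes above 0, 4 below and a median of -0.08. Of 5 sperm markers 0 were called, with 1 above 0, 4 below and a median of -0.06. The germline list had sums of 2076 to 2154 CPM in N2 and 2047 to 2073 CPM in the mutant, and the sperm list had 395 to 405 and 386 to 391 CPM. In both lists every mutant sum lay below every N2 sum, and no marker of these lists was at 0 in all libraries. The part of these markers in the values of the beta-oxidation genes was not tested. In RNA from whole animals, more cells of a tissue and more RNA per cell cannot be told apart.

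**Figure D5:**
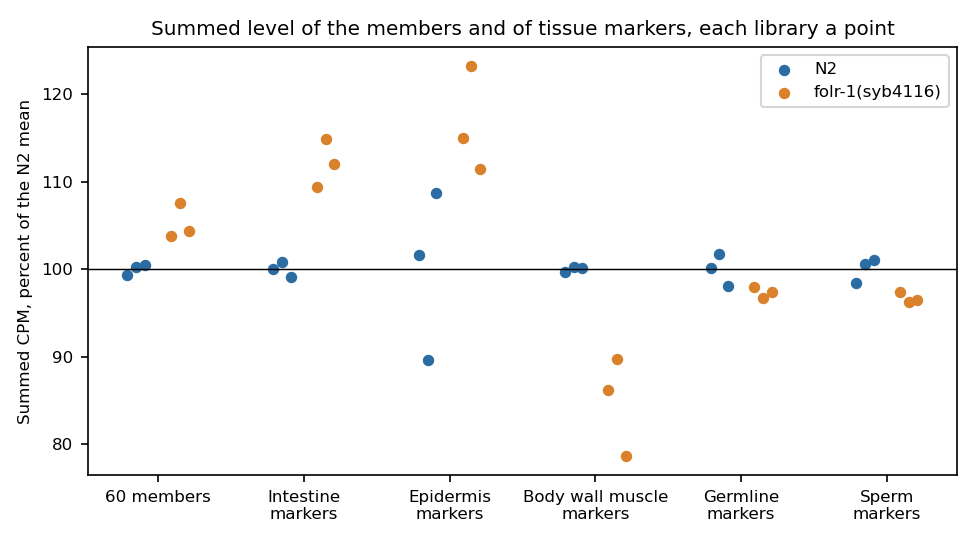
Summed CPM of the 60 genes and of 5 lists of tissue markers in each library, as a percentage of the N2 mean of the same list (vertical axis), with N2 in blue and *folr-1(syb4116)* in orange. The mutant points of the 60 genes are above the N2 points, those of the intestine and epidermis markers are higher still, and those of the muscle markers are below 100.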

How the data were processed

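RNA of whole L4 larvae was sequenced as poly-A libraries with paired-end reads, which the authors processed with fastp, HISAT2 and featureCounts on WBcel235. They deposited raw read counts per gene and FPKM values (named RPKM in the methods), which the authors calculated from the counts and the gene length. Tool versions are not given in the sources used here. The methods describe directional and non-directional libraries, so reads of overlapping genes on opposite strands may be shared. Of the 46661 genes, 46180 were matched to one WBcel235 gene of the Ensembl annotation by sequence name.

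Counts were filtered with filterByExpr, scaled with TMM and tested with glmQLFit and glmQLFTest (edgeR 4.0.16, R 4.3.3), with strain as the only term and the Benjamini-Hochberg adjustment over 15432 genes. Standard errors are the absolute log2 fold change divided by the square root of F. CPM use the scaled totals of the tested genes. Alternatives used DESeq2 1.42.0 and limma 3.58.1. The methods of the study name both DESeq2 and edgeR after TMM scaling, and DESeq2 with TMM factors was among the alternatives. An exact permutation test of 3 against 3 cannot go below 0.1, so single genes were not judged by it. No library was a duplicate of another: pairs within a strain had a chi-square of 3.27 to 8.67 for each degree of freedom. The p-values set the difference between the strains against the spread between 3 biological replicates. In edgeR each gene's own spread was drawn towards a trend over all genes, with 12.13 prior degrees of freedom.

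The genes and lists were chosen with earlier results of these data known. Genes named with values are those called, the one with the most reads of each class and 15 with known roles, and list members and some overlapping genes are given beside them. *acs-6*, *acs-18*, *acs-24*, *acdh-4*, *acdh-5*, *acdh-7*, *acdh-8*, *ech-3*, *ech-8*, *acox-1.3*, *acox-1.4* and *acox-1.5* were named after their values were seen. Sequences of the genes were not used here.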

Additional observations from a re-analysis of the deposited data

How the results depend on the processing

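The number of beta-oxidation genes called higher, 9 with edgeR, was 14 with no filter on low counts, 5 with limma on log2(FPKM + 1), 4 with limma on log2(FPKM + 0.1), and 0 with the stricter threshold of an adjusted p under 0.005 and an absolute log2 fold change over 1. The number called lower, 1, was 0 with DESeq2 under both kinds of size factors, with at least 10 counts in every library, with either limma fit on FPKM and with the stricter threshold, and 3 with no filter. Leaving out one library gave 4 to 8 higher and 0 to 2 lower genes. Without N2 replicate 1, *acox-1.5* and *acs-6* were called lower, and without *folr-1(syb4116)* replicate 1, *acs-18* was. With no filter the prior degrees of freedom of edgeR became infinite, so that all genes shared one trend of spread and a gene's own spread no longer counted.

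Over all genes, 561 were higher and 512 lower. Higher genes numbered 894 with no filter, 310 and 309 with limma on log2(FPKM + 1) and log2(FPKM + 0.1), 4 with the stricter threshold and 335 to 529 with one library left out. Lower genes numbered 752 with no filter, 268 and 274 with the same limma fits, 138 with the stricter threshold and 337 to 470 with one library left out.

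The median log2 fold change of the 60 genes, 0.05, lay between 0.04 and 0.05 in 11 other fits and between 0.0253 and 0.0521 with one library left out. With one library left out, the log2 fold change of *acs-2* lay between -0.0992 and 0.0027, above 0 only without *folr-1(syb4116)* replicate 2, and that of *ech-1.2* lay between -0.0224 and 0.0088, above 0 only without *folr-1(syb4116)* replicate 1. That of *ech-1.2* was also above 0, at 0.0048, with the length correction, with or without the replicate block. Neither was called. The call of *folr-1* held in every fit that kept the gene (a minimum of 10 counts in every library removed it), with log2 fold changes from -2.20 to -1.79 when one library was left out.

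Deviations from the strain mean did not move together in same-numbered libraries, with correlations of -0.02, -0.05 and 0.01. Whether same-numbered samples were grown or collected together is not stated, and these values cannot decide it. With the replicate block, 8 of the 60 genes were higher (*acox-1.1* gained, *dhs-28* and *ech-7* lost) and 0 were lower. With the block and the length correction, 7 were higher and 0 lower. With the length correction alone 8 were higher and 1 lower. There too *acox-1.1* was gained, and *dhs-28* (adjusted p = 0.0676) and *ech-7* (adjusted p = 0.0975) were lost. At 4 to 18 counts per library, the depth limits *cpt-3* most.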
